A study of Mus musculus with 18 samples.

Results

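Krt6a, Krt6b, Krt16 and Krt17, the stress keratins of the epidermis, were followed in mouse skin after repeated tape stripping, with and without an oral plant extract. All probe sets whose annotation names exactly 1 of these symbols were taken, which gave 7 of the 45037 probe sets tested and 4 of the 18193 genes represented. Krt6a had 3 probe sets (1422784_at, 1422783_a_at and 1427700_x_at), Krt6b had 1 (1422588_at), Krt16 had 1 (1448932_at) and Krt17 had 2 (1423227_at and 1420193_at). Of the 7, 6 varied. The second Krt17 probe set, 1420193_at, stood at 7.32 on all 18 arrays and gives no information, as did 33091 (73.5%) of the probe sets tested, whose range was under 0.01.

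Keratins are the intermediate filament proteins of epithelial cells, and every keratin filament is built from a type I chain paired with a type II chain. Krt6a and Krt6b encode type II chains, and Krt16 and Krt17 encode type I chains that pair with them. In unwounded body skin these keratins are largely kept to the hair follicle, the nail and other sites of friction, while the epidermis between follicles uses the Krt5 and Krt14 pair in its basal layer and the Krt1 and Krt10 pair above it. After wounding, barrier damage or in hyperproliferative disease the stress keratins appear in the suprabasal epidermis. On the mouse assembly GRCm38.p6, Krt6b lies next to Krt6a, which lies next to Krt5, in the type II cluster on chromosome 15. Krt14, Krt16 and Krt17 are consecutive genes of the type I cluster on chromosome 11.

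The arrays held RNA of dorsal skin from male mice of HR-1, a hairless albino stock, with an age of 6 weeks in the labels. WB mice (6 arrays) were stripped on the left dorsal skin and received winged bean extract by mouth, 200 mg/kg/day at 20 mg/ml in 0.3% carboxymethylcellulose, 5 times per week for 5 weeks, beginning 1 week before the first stripping. TS mice (6 arrays) were stripped in the same way with no extract, 3 times per week for 4 weeks, and each session was continued until transepidermal water loss reached 70 to 100 g/m2/h. NT mice (6 arrays) were not stripped, and the labels do not say whether NT or TS mice received the vehicle. The design asks what stripping does to the skin (TS against NT) and what the extract does in stripped skin (WB against TS). HR-1 skin is abnormal in its hair follicles, which limits it as a model of follicular keratins, and the dissected tissue was whole skin, so fewer cells of a type and less RNA per cell cannot be told apart.

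All levels and differences below are log2 values as deposited, and ± marks an SD of the 6 arrays of a group. Adjusted p values of single probe sets are from limma with Benjamini-Hochberg adjustment over all 45037 probe sets. "Rose" and "fell" are used where that value was under 0.05 and the difference at least 0.01. The WB arrays stood apart in the control probe sets that report the 3' and 5' ends of 2 transcripts. The 3' minus 5' difference of actin was 5.69 ± 0.25 in WB, 0.16 ± 0.07 in TS and -0.51 ± 0.10 in NT, and that of Gapdh was 3.70 ± 0.36 in WB, -0.44 ± 0.11 in TS and -0.59 ± 0.11 in NT. WB differed from TS and from NT in both measures by exact permutation of 6 against 6 arrays (p = 0.00216, the smallest this design can give; adjusted p = 0.00281 over 39 tests), and the effect of the extract cannot be told apart from the difference in these values. The mean of 12 keratinocyte markers was 11.97 ± 0.18 in WB, 12.48 ± 0.14 in TS and 11.71 ± 0.21 in NT. Markers of other tissues were also high in NT, at 12.99 for skeletal muscle and 12.61 for fibroblasts. Group differences of these and other marker lists are given with the processing of the data, and their part in the keratin values was not tested. One NT array, NT 5, had a mean of 15.20 over 8 liver markers, against 6.94 to 7.21 on the other arrays.

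**Figure D1:**
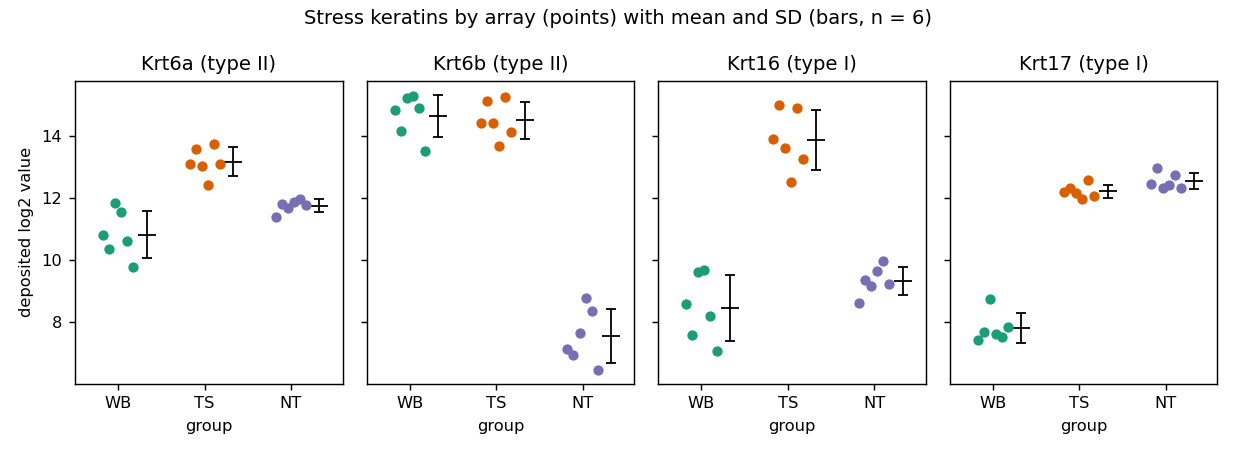
Deposited log2 value of the representative probe set of each stress keratin (1422784_at for Krt6a) on the 6 WB, 6 TS and 6 NT arrays. Each of the 4 genes has 1 panel, points are arrays, and the bar is the mean with its SD. Krt6b is high in WB and TS and low in NT, Krt16 is high in TS alone among the 3 groups, and Krt17 is high in TS and NT and low in WB.

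The 4 genes did not share 1 pattern over the groups. Krt6b was high in both stripped groups and low in NT. Krt16 and Krt6a were highest in TS, and Krt6a was lower in WB than in NT. Krt17 did not differ detectably between TS and NT and was low in WB. In TS against NT, 4 of the 6 varying probe sets rose and none fell, beside 4.97% of all tested probe sets that rose and 5.14% that fell, and 38.1% of the 11946 varying ones that were called in either direction. The same 4 did not overlap between TS and NT, beside 12.2% of varying probe sets that lay wholly higher in TS and 12.7% wholly lower.

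Krt6b gave the widest separation between stripped and unstripped skin. Its lowest, median and highest values were 13.66, 14.41 and 15.25 in TS, against 6.47, 7.41 and 8.78 in NT. Every TS array thus lay at least 4.88 above every NT array. The mean difference was 6.93 (SE 0.42, 95% confidence interval 6.03 to 7.82, adjusted p = 9.2e-08). Counting Krt6b itself, 2 of the 11946 varying probe sets rose by as much or more in this comparison. Counts of this kind below also include the probe set described. On the deposited scale 6.93 corresponds to 122-fold, a size that depends on the low NT level, for which the table holds no background measure.

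Krt16, the type I chain most often named together with Krt6 in wounded epidermis, rose as well. Its lowest, median and highest values were 12.51, 13.74 and 15.00 in TS, against 8.61, 9.31 and 9.97 in NT. Again no TS array overlapped an NT array, with a gap of 2.54 between them. The difference was 4.52 (SE 0.50, interval 3.46 to 5.59, adjusted p = 2.4e-05), and 9 varying probe sets, or 0.0753%, rose by as much or more.

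Krt6a rose less on its representative probe set, 1422784_at. The lowest, median and highest values were 12.42, 13.10 and 13.73 in TS, against 11.38, 11.79 and 11.97 in NT. Both groups were well above the array medians of 6.9 to 6.95, and they were separated by 0.44. The difference was 1.41 (SE 0.30, interval 0.76 to 2.06, adjusted p = 0.00442).

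The 3 probe sets of Krt6a gave the same order of groups with different sizes. On 1422783_a_at the values were 12.59 to 15.55 in TS (median 13.98), against a median of 10.95 and a highest value of 11.45 in NT, a difference of 3.30 (SE 0.57, adjusted p = 0.000791). On 1427700_x_at they were 9.87, 10.26 and 10.66 in TS and 9.35, 9.75 and 9.94 in NT. This last difference, 0.54 (SE 0.18, interval 0.16 to 0.92), was not called (adjusted p = 0.055), and the 2 groups overlapped by 0.06. It passed under 3 other settings of the fit and when any 1 of TS 4, TS 6 or WB 3 was left out. Krt6a and Krt6b are near-identical paralogs, and the suffix x marks probe sets with probes that can match related transcripts, so the share of Krt6b signal in the Krt6a values, or the reverse, is uncertain.

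**Figure D2:**
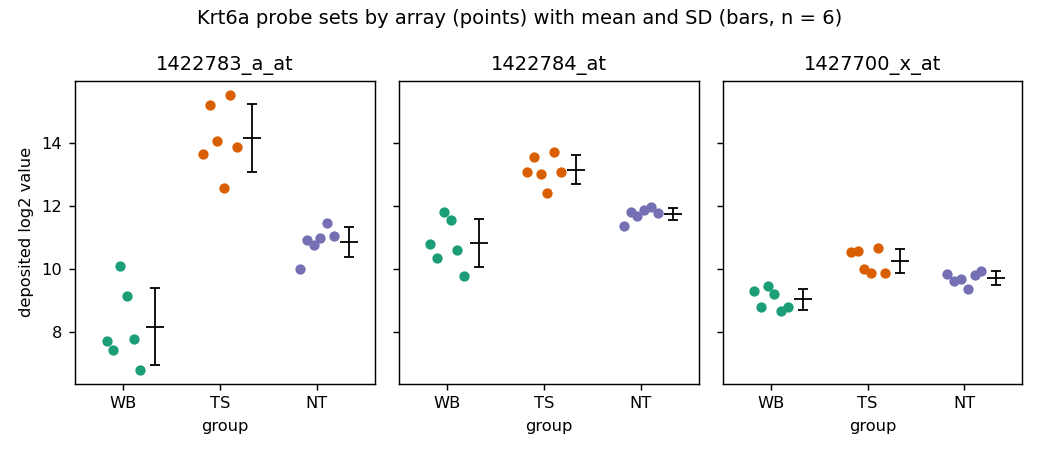
Deposited log2 values of the 3 Krt6a probe sets on each of the 18 arrays, grouped as WB, TS and NT. All 3 have their highest group mean in TS and their lowest in WB, and 1422783_a_at spans the widest range, 6.78 on WB 6 to 15.55 on TS 5.

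Krt17, which in unwounded skin is a keratin of the outer root sheath of the hair follicle, had no call with stripping. Its values on 1423227_at were 11.95, 12.18 and 12.57 (lowest, median, highest) in TS, against 12.33, 12.42 and 12.97 in NT. The groups overlapped, and the difference was -0.33 (SE 0.19, interval -0.74 to 0.09, adjusted p = 0.35). The interval leaves room for a fall of up to 0.74 and for no rise above 0.09. Over the same arrays the mean of 9 varying hair follicle markers was 8.57 ± 0.61 in TS and 9.94 ± 0.27 in NT (difference -1.37, exact permutation p = 0.00216, adjusted p = 0.00281), with 0 of the 9 risen and 7 fallen. The mean of the keratinocyte markers was 0.77 higher in TS (exact permutation p = 0.00216, adjusted p = 0.00281), with 10 of 12 risen and 0 fallen. The part of either shift in the keratin values was not tested. Without NT 5 the TS minus NT differences were 1.45, 3.42 and 0.56 for the 3 Krt6a probe sets (1422784_at, 1422783_a_at, 1427700_x_at), 7.09 for Krt6b, 4.65 for Krt16 and -0.29 for Krt17, with the same calls.

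The extract comparison, WB against TS, gave falls of 5 of the 6 varying probe sets and no rise. Calls were common in this comparison: 11.1% of all tested probe sets fell, and 88.8% of the varying ones were called in either direction. The number called is thus near the background. By gene, 3 of the 4 members fell, beside 39.2% of varying genes that fell and 48.4% that rose. All 5 probe sets that fell lay wholly below TS, beside 37.3% of varying probe sets wholly lower in WB and 40.3% wholly higher. This comparison shares its TS arrays with TS against NT, and a high TS value enters both.

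Krt17 was the member that separated WB most sharply from both other groups relative to its spread. Its lowest, median and highest values were 7.43, 7.66 and 8.74 in WB, against 11.95, 12.18 and 12.57 in TS. The closest arrays were 3.21 apart. The difference was -4.40 (SE 0.19, interval -4.81 to -3.98, adjusted p = 1.7e-11), and 120 varying probe sets, or 1%, fell by as much or more.

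Krt16 lay at 7.08, 8.39 and 9.69 (lowest, median, highest) in WB, against 12.51, 13.74 and 15.00 in TS. No WB array reached the lowest TS array. The difference was -5.40 (SE 0.50, interval -6.46 to -4.34, adjusted p = 1.4e-07), and 48 varying probe sets, or 0.402%, fell by as much or more.

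Krt6a fell on all 3 probe sets, by amounts as unequal as those of the stripping comparison. On 1422784_at its values were 9.77, 10.71 and 11.83 in WB, against 12.42, 13.10 and 13.73 in TS (lowest, median, highest), a difference of -2.34 (SE 0.30, adjusted p = 7.4e-06). On 1422783_a_at they were 6.78, 7.74 and 10.10 in WB, against 12.59, 13.98 and 15.55 in TS, a difference of -6.01 (SE 0.57, adjusted p = 1.8e-07). The third, 1427700_x_at, had 8.66, 8.99 and 9.46 in WB, against 9.87, 10.26 and 10.66 in TS, and fell by 1.22 (SE 0.18, adjusted p = 2.6e-05). WB and TS did not overlap on any of the 3, although a fall of 1.22 or more was seen for 18.6% of varying probe sets.

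Krt6b was the exception. It had 13.51, 14.85 and 15.26 (lowest, median, highest) in WB, against 13.66, 14.41 and 15.25 in TS, and the groups overlapped over nearly their whole ranges. The difference was 0.15 (SE 0.42, adjusted p = 0.945), and its interval of -0.75 to 1.04 leaves room for a change in either direction. Its sign turned when 1 array was left out, over a range of -0.02 to 0.37. The 3' minus 5' values of the WB arrays, given above, stand beside all of these differences, and their part in them was not tested.

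In WB against NT, 1 of the 6 varying probe sets rose and 4 fell. Beside them, 23.7% of all tested probe sets and 89.3% of the varying ones were called in either direction. The number called is again near the background. Krt6b was 13.51 to 15.26 in WB, against 6.47 to 8.78 in NT, a rise of 7.08 (SE 0.42, interval 6.18 to 7.97, adjusted p = 5.5e-10). Krt17 was 7.43 to 8.74 in WB, against 12.33 to 12.97 in NT, a difference of -4.72 (SE 0.19, interval -5.14 to -4.31, adjusted p = 5.9e-12). Both pairs of groups were fully separated, in opposite directions, beside 42.0% of varying probe sets wholly higher in WB and 39.7% wholly lower. Among varying probe sets, 3 rose by as much as Krt6b and 119 (0.996%) fell by as much as Krt17.

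Krt6a was lower in WB than in NT on each probe set, with overlapping groups. Its differences were -0.93 (SE 0.30, adjusted p = 0.019) on 1422784_at, -2.70 (SE 0.57, adjusted p = 0.000784) on 1422783_a_at and -0.69 (SE 0.18, adjusted p = 0.00442) on 1427700_x_at. Krt16 had 7.08 to 9.69 in WB, against 8.61 to 9.97 in NT. Its difference of -0.88 (SE 0.50, interval -1.94 to 0.18) was not called (adjusted p = 0.172), so the order of WB and NT for Krt16 is not settled at this number of arrays. Without NT 5, these WB minus NT calls were the same, with Krt16 at -0.75 and Krt6b at 7.24.

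Because type I and type II chains form filaments only together, the change of each type I member was set against that of each type II member on the same arrays. Krt6b was likewise set against Krt6a and Krt16 against Krt17, and Krt14 minus Krt5 and Krt10 minus Krt1 were added as pairs of unstressed epidermis. The level of 1 probe set is not comparable with that of another, so differences within an array are given relative to their NT mean. Of the 24 changes of these 8 pairs in 3 comparisons, 21 passed at an adjusted p under 0.05 by exact permutation, two-sided. Those at the smallest possible p of 0.00216 had an adjusted p of 0.00273. Probe sets of 1 gene can change unequally too: those of Krt6a differed by 0.54, 1.41 and 3.30 in TS against NT. A passing change therefore cannot tell unequal change of 2 genes from unequal response of 2 probe sets. Pairs of other genes were not run, so the count of 21 has no background beside it.

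Krt16 minus Krt6a was 2.51 to 3.85 in TS, against -0.35 to 0.41 in NT, a change of 3.12 on the representative Krt6a probe set (exact permutation, adjusted p = 0.00273). In WB this difference ran from -0.36 to 0.55, over nearly the same range as in NT. Its change from NT was 0.05 (exact permutation p = 0.794, adjusted p = 0.829) and its change from TS was -3.06 (exact permutation, adjusted p = 0.00273). On the mean of the 3 Krt6a probe sets the WB minus NT change was 0.56, and it passed (exact permutation, adjusted p = 0.0234). The size and, with the extract, the direction depended on the Krt6a probe set. Against 1422783_a_at the change of Krt16 was 1.22 in TS against NT and 1.83 in WB against NT (exact permutation, adjusted p = 0.0026 each, over 18 tests with the other 2 Krt6a probe sets), and in WB against TS it was 0.60, the opposite sign, with overlapping groups (exact permutation, adjusted p = 0.0344). Against 1427700_x_at it was 3.99 in TS against NT, -4.18 in WB against TS (exact permutation, adjusted p = 0.0026 each) and -0.19 in WB against NT (adjusted p = 0.643).

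Relative to Krt6b, both type I members were lowest in WB and highest in NT. Krt16 minus Krt6b was -8.46 to -7.35 in WB, -2.92 to -1.87 in TS and -0.91 to 1.01 in NT. Krt17 minus Krt6b was -12.60 to -10.64 in WB, -7.75 to -6.68 in TS and -1.36 to 1.06 in NT. No 2 groups overlapped for either pair. Krt17 minus Krt6a on 1422784_at separated the groups as well, at -4.71 to -2.72 in WB, -2.03 to -1.25 in TS and -0.26 to 0.38 in NT. On 1422783_a_at the order of WB and TS turned: the difference was -3.19 to -0.61 in WB, -4.66 to -2.32 in TS and -0.39 to 0.77 in NT, a change of 1.61 in WB against TS (exact permutation, adjusted p = 0.017).

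The probe sets of the adjacent paralogs changed unequally. Krt6b minus Krt6a was 7.56 to 8.45 in WB, 5.20 to 5.72 in TS and -1.13 to 1.10 in NT, with every change at the smallest possible p by exact permutation (adjusted p = 0.00273). All 3 changes were above 0 on the other Krt6a probe sets too, at 1.37 to 9.78 (exact permutation, adjusted p = 0.0026 each). Krt16 minus Krt17 was 2.45 to 5.26 in WB, 3.76 to 5.88 in TS and -0.63 to 0.45 in NT. Its change of -1.01 between WB and TS did not pass (exact permutation p = 0.0801, adjusted p = 0.0874), although it did without TS 4 (-1.22, adjusted p = 0.0472 by the same exact test) or without WB 4 (-1.29, adjusted p = 0.0331).

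The pairs of unstressed epidermis were measured in the same way. Krt14 minus Krt5, the basal pair, ran from 0.14 to 0.55 in WB, -0.12 to 0.09 in TS and -0.16 to 0.23 in NT, and its change in TS against NT was -0.00 (exact permutation p = 0.974). It changed by 0.32 in WB against TS (exact permutation, adjusted p = 0.00273), but by 0.02 with the mean of the varying Krt14 probe sets (exact permutation, adjusted p = 0.879), and its change of 0.32 in WB against NT was then 0.19 (adjusted p = 0.0756). Krt10 minus Krt1, the suprabasal pair, ran from -0.76 to -0.54 in WB, -0.83 to -0.71 in TS and -0.23 to 0.36 in NT. Its change of -0.79 in TS against NT passed (exact permutation, adjusted p = 0.00273).

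**Figure D3:**
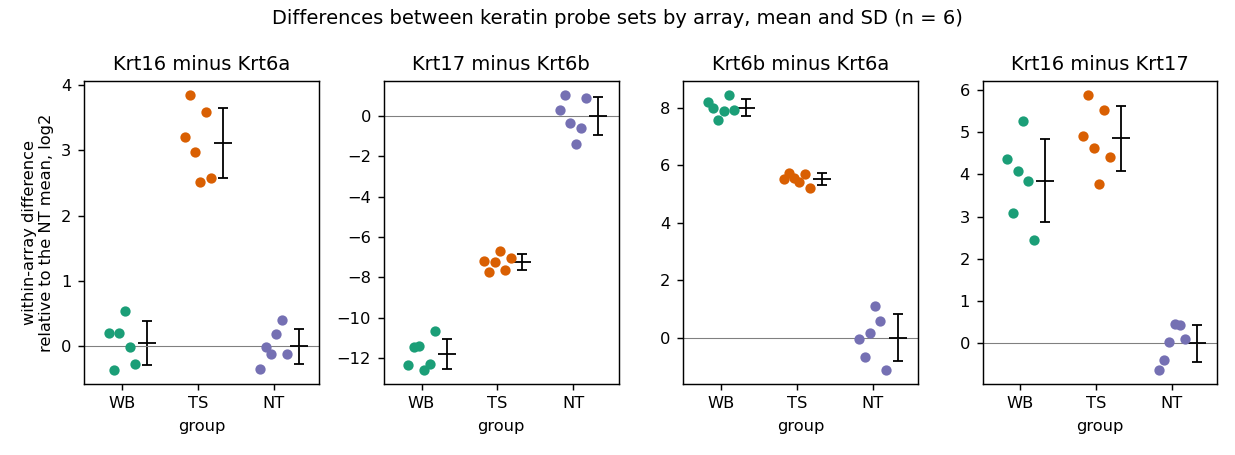
Within-array log2 difference of 2 representative stress keratin probe sets (1422784_at for Krt6a), relative to its NT mean, for the 6 WB, 6 TS and 6 NT arrays; points are arrays, bars the mean and SD. Krt16 minus Krt6a is raised in TS alone (2.51 to 3.85), while Krt6b minus Krt6a and Krt17 minus Krt6b separate all 3 groups without overlap.

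The arrays of a group also differed among themselves, and the stress keratins varied together across them. In TS, all 6 pairs of members correlated over the 6 arrays, with Pearson r from 0.92 to 0.99, and all 6 passed after adjustment over 18 correlations (exact permutation of pairings, adjusted p = 0.0125 to 0.0375). TS 5 and TS 2 were highest and TS 4 lowest in each of the 4 genes. Krt6b and Krt16 had the closest relation, with r of 0.99 and Spearman rho of 0.94 (exact permutation, adjusted p of r = 0.0125), and r was 0.99 without the 2 arrays farthest from the median. Krt17 joined this order although it did not differ detectably between TS and NT: its r was 0.96 with Krt6b, 0.92 with Krt16 and 0.92 with Krt6a.

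In WB only the correlations among Krt6a, Krt6b and Krt16 passed. They were 0.92 for Krt6a with Krt6b, 0.98 for Krt6a with Krt16 and 0.93 for Krt6b with Krt16 (exact permutation, adjusted p = 0.0222, 0.0125 and 0.0125 in this order). WB 3 and WB 4 were the highest arrays in Krt6a, Krt6b and Krt16, and WB 6 the lowest in Krt6a, Krt6b and Krt16. Krt17 correlated with these 3 at only 0.19 to 0.49, and none of these passed. In NT the single pair that passed was Krt6a with Krt16 (r = 0.97, rho = 1.00, exact permutation, adjusted p of r = 0.0125). By r, 10 of the 18 correlations passed, and by rho 8 did. With the mean of a gene's varying probe sets 8 passed by r, because Krt6a with Krt6b in WB (0.86, exact permutation, adjusted p = 0.0583) and Krt6a with Krt16 in NT (0.86, adjusted p = 0.0925) no longer did.

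Many other probe sets varied along with Krt16 within a group, which sets a scale for these correlations. In TS, 10 of 11945 other varying probe sets (0.0837%), counting Krt6b itself, correlated with Krt16 at least as highly as Krt6b did. The shares were 1.41% for Krt6a and 3.9% for Krt17, and each share here counts the member itself. In WB the shares were 0.176% for Krt6a, 1.79% for Krt6b and 31.2% for Krt17. In NT they were 0.0502% for Krt6a, 11.2% for Krt6b and 25.9% for Krt17. The mean of the keratinocyte markers ran with 3 of the members within WB, with r of 0.98 for Krt6a, 0.93 for Krt6b and 0.98 for Krt16, none of which passed after adjustment over 36 tests (exact permutation, adjusted p = 0.0833 each). In TS the same r were 0.46, 0.46 and 0.56 for Krt6a, Krt6b and Krt16, and 0.25 for Krt17. Of the 12 markers, Sfn varied most within WB (SD 1.17, beside 0.56 for Krt5, the next). The markers did not move together in WB against TS, where 4 of the 12 rose and 4 fell. The part of keratinocyte content, or of single markers, in the shared variation was not tested.

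**Figure D4:**
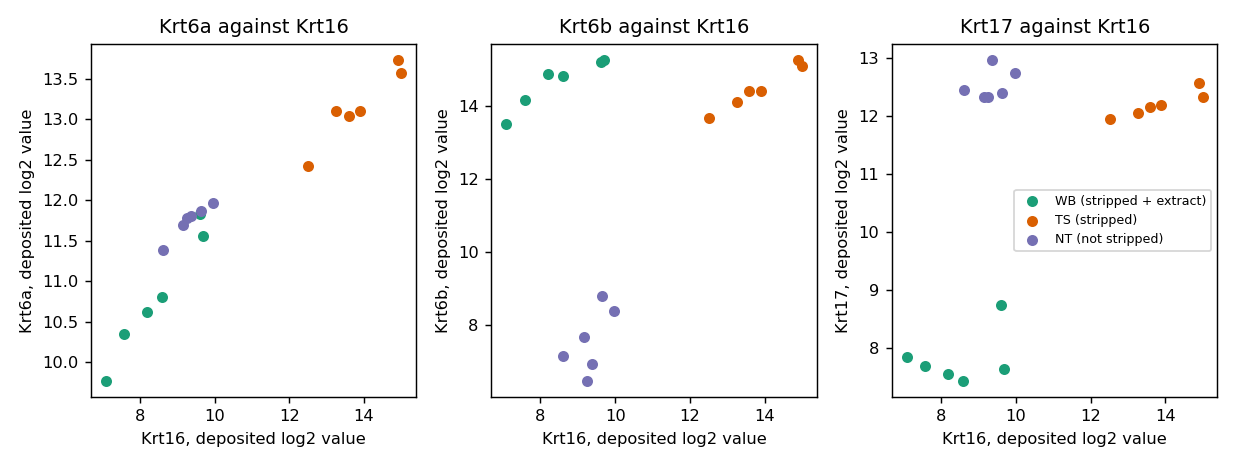
Deposited log2 values of other stress keratins (vertical axis) against Krt16 (horizontal axis), one point per array and colours for WB, TS and NT. Within TS all members rise with Krt16 (r = 0.92 to 0.99), and within WB Krt17 does not follow it as Krt6a and Krt6b do.

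The other keratins give the context of these values. Of 31 on the array, 22 varied. In the list of interfollicular keratins 9 of 12 varied, and 4 rose and 3 fell in TS against NT, with a median difference of 0.55 against 0.00 over all varying genes, of which 19.3% rose and 21.1% fell. The suprabasal keratins Krt1 (1.34, SE 0.17, adjusted p = 6.4e-05) and Krt10 (0.55, SE 0.09, adjusted p = 0.000723) rose in stripped skin, as did Krt78 (1.49, SE 0.26, adjusted p = 0.00089). Krt14, the basal type I chain, rose by 0.70 (SE 0.18, adjusted p = 0.0139), and its other varying probe sets rose by 0.73 and 1.20. Its partner Krt5 differed by the same 0.70 (SE 0.23) without a call (adjusted p = 0.0533), although it was called under 6 other settings of the fit, for example with only the TS and NT arrays (adjusted p = 0.0171), and when TS 4, WB 3 or WB 6 was left out. Krt77, a suprabasal type II chain, was 6.51 ± 0.48 in TS and fell by 8.58 (SE 0.24, adjusted p = 1.6e-12), a drop that ends under the array median, where its size is uncertain. No stress keratin had a difference as large as that of Krt77. Krt15, a basal type I chain, also fell (-0.95, SE 0.20, adjusted p = 0.00314), as did Krt2 (-0.87, SE 0.25, adjusted p = 0.0248). TS and NT overlapped for both, and the TS mean of Krt2, 6.39, lies under the array medians. The Krt2 call was lost with only the TS and NT arrays (adjusted p = 0.0819) and without NT 5, TS 2 or TS 3.

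The basal keratins fell in WB against TS on the deposited values. Krt14 fell on each of its varying probe sets, with differences from -4.84 to -1.83. The smallest of these falls ended at a WB mean of 6.58, under the array medians. Krt5 differed by -3.20 (SE 0.23, adjusted p = 6.9e-09), Krt14 by -2.88 (SE 0.18, adjusted p = 1.1e-09) and Krt15, another basal type I chain, by -2.80 (SE 0.20, adjusted p = 4.9e-09). Krt1 (0.00, SE 0.17) and Krt10 (0.13, SE 0.09) were not called, although under quantile normalization both rose, by 0.40 (adjusted p = 0.0272) and 0.81 (adjusted p = 4.2e-06). Krt80 fell by 0.62 (SE 0.12, adjusted p = 0.000577), and Krt78 rose by 1.39 (SE 0.26, adjusted p = 0.000288). Of all varying genes, 39.2% fell in this comparison and 48.4% rose.

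Companion layer and inner root sheath keratins, which belong to the follicle as Krt17 does, went down in TS. All 8 that varied fell against NT, with a median of -1.64, beside 21.1% of varying genes that fell. Krt72 was the weakest of them (-0.25, adjusted p = 0.0452), and its call was lost under quantile normalization (0.0679), median centring (0.0613) and array weights (0.0577) and without any 1 of 11 arrays, which leaves 7. The largest falls were those of Krt27 (-2.84, SE 0.57, adjusted p = 0.00244) and Krt25 (-2.46, SE 0.50, adjusted p = 0.00285). Krt71 fell by 1.77 (SE 0.35, adjusted p = 0.0025). Krt75 of the companion layer fell by less (-0.77, SE 0.17, adjusted p = 0.00496). With the extract (WB against TS) 4 of the 8 rose and 0 fell, beside 48.4% and 39.2% of varying genes: Krt25 (1.28, SE 0.50, adjusted p = 0.048), Krt26 (1.40, SE 0.26, adjusted p = 0.000287), Krt27 (2.80, SE 0.57, adjusted p = 0.000587) and Krt28 (adjusted p = 0.00228). The Krt25 call was lost with array weights (0.67, adjusted p = 0.327), with only the WB and TS arrays (adjusted p = 0.108) and without any 1 of 16 arrays. Krt73 (-0.84, adjusted p = 0.0892) was a called fall under median centring (adjusted p = 0.0498), array weights (0.0153), varying probe sets only (0.0391) and the replicate block (0.0288), and Krt71 with array weights (0.0453). Krt72 was a called rise under quantile normalization (0.00215), median centring (0.0175) and varying probe sets only (0.0472), and without TS 6 or WB 5. Krt17, in contrast, had no call in TS against NT and fell in WB against TS. Of the 5 varying keratins of simple and other epithelia, Krt7 alone rose in TS against NT (0.22, SE 0.05, adjusted p = 0.00555). Its means of 6.97 in TS and 6.75 in NT lie near the array medians.

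**Figure D5:**
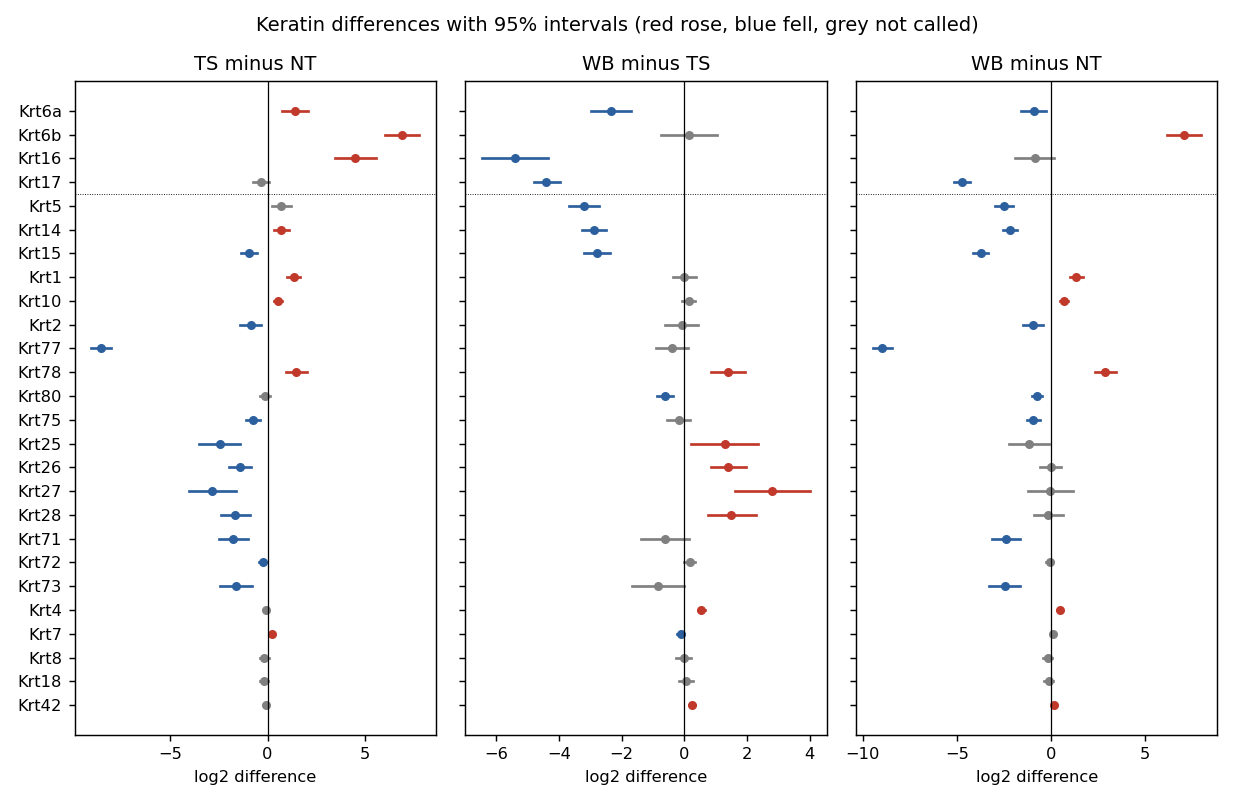
Difference in deposited log2 value with its 95% confidence interval for the stress keratins and the other varying keratins, in TS minus NT, WB minus TS and WB minus NT (panels left to right). Krt6b and Krt16 are the stress keratins farthest to the right in TS minus NT, Krt77 (-8.58) is farthest to the left there, and Krt17 (-4.40) and Krt16 (-5.40) lie with Krt5 and Krt14 on the left in WB minus TS.

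Known inducers of stress keratins were followed as a list of 25 genes on the array, of which 12 varied. In TS against NT 4 of these rose and 1 fell, beside 19.3% and 21.1% of varying genes. Ereg, encoding epiregulin, a ligand of the epidermal growth factor receptor, rose by 4.05 (SE 0.26, adjusted p = 1.3e-07). Its NT mean of 6.75 lies under the array medians, where the size of a rise is uncertain. Il1f6, Il1f9 and Il1f8, which encode the epidermal interleukin-36 cytokines, rose by 2.77, 1.75 and 1.76 in this order (SE 0.22, 0.16 and 0.18; adjusted p = 1.5e-06, 5.5e-06 and 1.4e-05). In WB against TS 2 rose and 6 fell, beside 48.4% and 39.2% of varying genes, with Ifngr1, a chain of the interferon gamma receptor, at -1.80 (SE 0.07, adjusted p = 7.1e-12), Il1f9 at -3.69 (SE 0.16, adjusted p = 1.6e-11), Il1f8 at -3.26 (SE 0.18, adjusted p = 2.8e-10) and Il1r1, the interleukin-1 receptor, at -1.04 (SE 0.12, adjusted p = 1.8e-06). Against NT, 5 rose and 6 fell in WB, beside 46.9% of all varying genes that rose and 41.3% that fell, and Ereg was 4.57 higher in WB (SE 0.26, adjusted p = 2.6e-10).

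Of 29 transcription factors reported to act on stress keratin genes, 18 varied. In TS against NT 8 rose and 1 fell, beside 19.3% and 21.1% of varying genes. The fall was that of Nr3c1, the glucocorticoid receptor, which represses these keratins (-0.58, SE 0.06, adjusted p = 1.9e-05). Tfap2c (1.32, SE 0.20, adjusted p = 0.000292), Klf4 (0.73, SE 0.11, adjusted p = 0.000381) and Tfap2a (0.45, SE 0.08, adjusted p = 0.00131) rose. With the extract, 10 rose and 4 fell against TS, beside 48.4% and 39.2% of varying genes. The 4 falls were Stat3, the effector of several wound cytokines (-1.58, SE 0.04, adjusted p = 2.8e-14), Rela, an NF-kappa B subunit (-1.04, SE 0.05, adjusted p = 5.5e-11), Nfe2l2, the oxidative stress factor NRF2 (-0.94, SE 0.07, adjusted p = 5.2e-09), and Cebpa (-1.91, SE 0.15, adjusted p = 1.5e-08). Against NT, 13 rose and 5 fell in WB, beside 46.9% and 41.3% of varying genes, so that calls were common among all genes.

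Of the proteins that bind or anchor keratin filaments 17 varied, and 8 rose and 3 fell in TS against NT, beside 19.3% and 21.1% of varying genes. Differences ran from -2.09 for Tchh, trichohyalin of the hair follicle, to 1.53 for Sfn. By the smallest p they included Pkp1, a desmosomal plaque protein (0.51, SE 0.08, adjusted p = 0.000266), Flg, the filament-aggregating protein filaggrin (1.05, SE 0.16, adjusted p = 0.000305), and Jup, plakoglobin (0.38, SE 0.06, adjusted p = 0.00034), while Pkp2 fell (-0.52, SE 0.08, adjusted p = 0.000327). Of the same 17, 8 rose and 7 fell in WB against TS, near the 48.4% and 39.2% of varying genes, and differences ran from -3.44 for Sfn to 2.41 for Tchh. Pkp1 (-1.27, SE 0.08, adjusted p = 6.2e-10), Ppl, the cross-linker periplakin (-1.88, SE 0.14, adjusted p = 1.4e-08), and the small heat shock gene Hspb8 (-1.69, SE 0.15, adjusted p = 1e-07) were among the falls, and Dsp, desmoplakin, was among the rises (0.47, SE 0.05, adjusted p = 5.5e-07). Against NT, 6 rose and 6 fell in WB, beside 46.9% and 41.3%.

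Genes known to accompany stress keratins in wounded and hyperproliferative epidermis rose widely with stripping. Of the 18 that varied, 14 rose and 0 fell in TS against NT, beside 19.3% and 21.1% of varying genes, with a median of 2.66. This list, like those above, was chosen with earlier results of these data known, so its counts describe the data and test nothing. Rptn, a cornified envelope protein related to filaggrin, was 8.20 higher (SE 0.32, adjusted p = 2.6e-10), Serpinb12 5.24 higher (SE 0.32, adjusted p = 9.8e-08), Sprr2d, another envelope precursor, 4.63 higher (SE 0.35, adjusted p = 9.4e-07) and Stfa3, a cystatin-type protease inhibitor, 2.74 higher (SE 0.20, adjusted p = 8.1e-07). The NT means of Rptn and Serpinb12 lie under the array medians, where the size of a rise is uncertain. Of the 18 genes of this list, 1 rose and 10 fell in WB against TS, beside 48.4% and 39.2% of varying genes. Tgm1, the transglutaminase of the cornified envelope, differed by -1.89 (SE 0.11, adjusted p = 5.8e-10), Serpinb12 by -3.13 (SE 0.32, adjusted p = 4.8e-07), Sprr1a by -1.73 (SE 0.29, adjusted p = 9.2e-05) and Lcn2, encoding lipocalin 2, by -3.08 (SE 0.57, adjusted p = 0.000258). Rptn was the rise (0.95). Against NT, 9 rose and 3 fell in WB, beside 46.9% and 41.3%.

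The genes whose profiles were closest to each member were found by Pearson r over all 18 arrays among 10480 varying probe sets with 1 symbol. These r describe arrays that share groups, so any gene with the same order of group means scores highly. Closest to Krt6b were Sprr2d (0.990), the kallikrein Klk13 (0.989), Rptn (0.988), Stfa3 (0.987) and Sprr2h (0.976), all with high means in WB and TS and a low mean in NT. Klk13, for example, averaged 11.94 in WB, 11.05 in TS and 6.15 in NT.

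Closest to Krt16 were Aknad1 (0.973), Sprr2k (0.973), the water and glycerol channel Aqp3 (0.968), Enah (0.968) and Mtm1 (0.964). Aqp3 averaged 7.52 in WB, 11.71 in TS and 7.73 in NT. Krt6a was closest to Prkar1a (0.972), Avpi1 (0.967), Pfkl (0.964), Sfn, encoding the epidermal 14-3-3 sigma protein (0.963), and Il13ra1 (0.963). Krt17 was closest to Tmsb10 (0.995), Txn2 (0.995), Ndufs8 (0.995), Hebp1 (0.994) and Nudt16l1 (0.994), genes with no epidermal restriction. Tmsb10 averaged 5.25 in WB, 11.22 in TS and 11.72 in NT.

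Over the 12 TS and NT arrays alone, Krt16 was itself the second closest gene to Krt6a (0.986), beside Car2, a carbonic anhydrase (0.986). Car2 was also the closest to Krt16 (0.995), followed by Stfa2l1 (0.993) and Klk13 (0.990). Krt6b was closest to Klk13 (0.995) and Sprr2d (0.992). For Krt17 the highest r was 0.918, with Erc1, against 0.986 to 0.995 for the other members.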

How the data were processed

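Per the labels' protocols, RNA of dorsal skin was taken up in Isogen, cleaned with an RNeasy kit and, starting from 100 ng, made into biotinylated cRNA for Affymetrix mouse expression arrays. The authors deposited a table of processed values, 1 per probe set and array, which were read as log2 values from their range of 2.93 to 19.04. The base, the summarising method and the normalization are not given in the sources used here, and folds rest on that reading. No background measure or scanner file was used. The size of a difference is uncertain where a group mean lies under the highest array median of 6.95, as for Krt26, Krt28, Pkp2 and Il1f9. Precision is limited by the number of arrays.

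Of 45101 probe sets, 64 controls were left out. Of those tested, 34945 had 1 symbol in the platform annotation, 932 several and 9160 none; a probe set naming both Krt17 and Krt14 was left out of the members. Each gene is given by the brightest of its probe sets on average. Group differences come from limma 3.58.1 under R 4.3.3 (lmFit, eBayes, two-sided, 18 arrays in 1 fit without covariates), Benjamini-Hochberg adjusted, threshold 0.05. The fit was tested on simulated data. Exact permutation tests used scipy 1.17.1. The labels call the samples biological replicates and name no animals.

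The members and all lists were chosen with earlier results of these data known. Genes named are every member probe set, keratins of the lists, the 4 smallest p of each other list and comparison, and the 5 highest r to each member; of these a part is printed. Rptn in WB against TS and Sfn and Tchh are named after their values were seen. Marker lists of other cell types were also measured. Mean differences of TS against NT, WB against TS and WB against NT were -2.29, -2.37 and -4.66 for skeletal muscle, -1.51, -1.54 and -3.05 for adipocytes, -0.44, -0.64 and -1.08 for sebaceous gland, -0.14, -0.52 and -0.66 for fibroblasts, 0.65, -2.45 and -1.80 for endothelium, -1.27, -1.64 and -2.91 for macrophages and dendritic cells, -0.86, -0.85 and -1.71 for T cells, and 0.73, -2.52 and -1.79 for mast cells. The comparison of correlations and sizes with all varying probe sets, of members with marker means, and of pairs by Krt6a probe set, was added after seeing the data.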

Additional observations from a re-analysis of the deposited data

Results flagged for a closer look

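Krt17 stood apart on 1 array of WB. On WB 3 its probe set 1423227_at had a log2 value of 8.74, against 7.84 on the next highest WB array, and that gap was 0.685 of the range of the group, above Dixon's critical value for 6 arrays. Over 18 groups of values tested (6 probe sets in 3 groups) this was the only such value, and chance gives about 1 in 20, or 0.9 expected. Without WB 3 the Krt17 difference was -4.58 in WB against TS and -4.91 in WB against NT, compared with -4.40 and -4.72 with it, and both remained below 0 with calls. WB 3 was also high in Krt6a (11.83), Krt6b (15.20) and Krt16 (9.61).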

How the results depend on the processing

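The calls of the representative probe sets of Krt6a, Krt6b, Krt16 and Krt17 kept their direction and call in 311 of 312 results under the alternatives; the exception was the sign of Krt6b in WB against TS, which had no call and ranged from -0.02 to 0.37 when 1 array was left out. Of 150 results for the other 2 Krt6a probe sets, 6 passed where they had not, all for 1427700_x_at in TS against NT (quantile normalization, adjusted p = 0.0439; filter on dim probe sets, 0.0429; varying probe sets only, 0.0167; without TS 4, 0.0328; without TS 6, 0.0366; without WB 3, 0.0456). Over all probe sets, the calls in TS against NT numbered 4551 (2238 higher, 2313 lower) and 6804 under quantile normalization (4682 higher, 2122 lower). Those in WB against TS numbered 10612, and 39795 under quantile normalization (35075 higher, 4720 lower), 43993 under median centring (39061 higher, 4932 lower) and 6374 with the mean of a gene's varying probe sets (3077 higher, 3297 lower; genes in place of probe sets). Those in WB against NT numbered 10667, and 41328 (36480 higher, 4848 lower), 43993 (38842 higher, 5151 lower) and 6514 (3068 higher, 3446 lower) in the same order. Only 11946 probe sets vary on the deposited values. Most of the WB calls under quantile normalization and median centring are therefore of probe sets that were constant before scaling. Scaling moved the median probe set by at most 0.038, beside the minimum difference of 0.01 for a call.

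Leaving out 1 array gave 4031 to 4660, 10482 to 10619 and 10539 to 10689 calls in TS against NT, WB against TS and WB against NT. With the replicate number as a block the counts were 4171, 10510 and 10592. Deviations from the group means correlated between same-numbered arrays at r of -0.13 to 0.127 for TS with NT. For WB with TS the r were -0.268 to 0.048, and for WB with NT -0.051 to 0.138. WB replicates 1, 2, 4 and 6 correlated more with the NT array of their own number than with the other NT arrays. These r were small, and the numbers were not taken as pairs. Signs turned for Krt26 in WB against NT (0.12 under quantile normalization, 0.02 under median centring), Krt27 (0.14, quantile) and Krt72 (0.07, quantile) there, Krt8 in WB against TS (0.00 and 0.01), and Krt14 minus Krt5 in TS against NT with the mean of varying probe sets (0.18). When 1 array was left out they turned for Krt1 (-0.07 to 0.04), Krt2 (-0.14 to 0.02) and Krt8 (-0.05 to 0.01) in WB against TS, for Krt26 (-0.11 to 0.07), Krt27 (-0.21 to 0.11) and Krt28 (-0.30 to 0.01) in WB against NT, for Krt16 minus Krt6a in WB against NT (-0.05 to 0.13) and for Krt14 minus Krt5 in TS against NT (-0.04 to 0.04). None of these had been called. With 1422783_a_at for Krt6a, chosen after seeing the data, signs turned in WB against TS for Krt16 minus Krt6a (0.60) and Krt17 minus Krt6a (1.61), which had passed with the opposite sign, and with 1427700_x_at for Krt16 minus Krt6a in WB against NT (-0.19), which had not. The causes were not tested.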

Other observations

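Several keratin probe sets carried a value that was the same on every array. Krt79, a keratin of the follicle opening and sebaceous duct, stood at 13.04 on all 18 arrays, with a range of 2.0e-07, although this level is far above the array medians of 6.9 to 6.95. Krt23 stood at 9.03 with a range of 6.5e-06. The second Krt17 probe set (7.32) and the probe set annotated to Krt17 and Krt14 together (6.99) each had a range of 1.0e-09, while the first Krt17 probe set spanned 7.43 to 12.97. Values of this kind give no measure of the gene in any group, and their origin is not stated in the labels or the table.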
